A study of Homo sapiens with 6 samples.

Results

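The 10 genes described here encode the erythropoietin receptor EPOR, the kinase JAK2, the transcription factors STAT5A, STAT5B and STAT3, the feedback inhibitors CISH, SOCS1, SOCS2 and SOCS3, and the kinase PIM1. They were chosen by name, as the pathway that runs from the receptor to its STAT-induced outputs, and all 10 were found among the 31999 genes listed for the series. RNA was sequenced from HEL cells, a human erythroleukemia cell line grown in culture, that carried either a control hairpin (shCtrl, 3 libraries) or a hairpin against TMIGD2 (shTMIGD2, 3 libraries). TMIGD2 is a receptor of the CD28 family. The libraries were labelled as biological replicates, and all 6 came from 1 cell line. Which of the study's hairpins against TMIGD2 was used is not given in the labels. HEL cells are known to carry an activating mutation in the pseudokinase domain of JAK2, which both groups would share.

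When erythropoietin binds EPOR, the JAK2 molecules attached to the receptor's tails phosphorylate each other, the receptor and STAT5, which then forms dimers, enters the nucleus and binds DNA. Among the genes STAT5 and STAT3 switch on are CISH, the SOCS genes and PIM1. The CISH and SOCS proteins bind the receptor or the kinase and dampen the signal, so their transcripts are often read as a sign that the pathway is active. In red cell precursors this pathway supports survival and expansion.

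The level used throughout is the authors' mean log2 CPM (CPM being a gene's reads scaled to the size of the library) of each gene over all 6 libraries, both groups pooled. It is 1 value a gene, without an error, and the levels in the single libraries and the difference between shTMIGD2 and shCtrl were not analysed here. No test was therefore run, and an order of levels given below carries no replicate error. The depth of the libraries is unknown from these values. TMIGD2 itself had a pooled level of 4.08, which does not check the knockdown. The lineage given by the label was set beside markers chosen with earlier results of these data known, as a description. They do not tell HEL from another line of the same lineages. All 10 erythroid and megakaryocyte markers, among them GATA1, KLF1 and ITGA2B, lay between 5.86 and 11.09. Of 7 markers of T cells, B cells, epithelium, fibroblasts and liver, 4 had a value, and 0 of them reached a level of 0, which is 1 CPM.

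In the promoter windows used here, CISH was set apart from 8 of the other genes by sequence before its start. STAT dimers are known to bind the letters TTCNNNGAA, which read the same on both strands. In RefSeq promoter windows (GRCh38.p14, from 250 bases before to 50 bases after a transcription start), 9 of the 10 genes were matched with 15 windows in all, and SOCS2 was not matched. CISH held 4 matches, and the other 8 genes held 0. Thus 1 of the 9 genes held any match in these windows, where 9.38% of all genes did. The count depends on the RefSeq starts. The windows of SOCS3 and STAT5B do not cover the GENCODE starts of these genes, chr17:78360077 and chr17:42288633. Windows of 300 bases on those starts were not used, and a match of SOCS3 given below lies just before its GENCODE start. The stretch of 138 bases that spans the 4 matches is chr3:50611878-50612015 on the minus strand. It is shown because no other of the 9 genes held the motif in its RefSeq windows. Its capitals mark the matches.
CISH promoter: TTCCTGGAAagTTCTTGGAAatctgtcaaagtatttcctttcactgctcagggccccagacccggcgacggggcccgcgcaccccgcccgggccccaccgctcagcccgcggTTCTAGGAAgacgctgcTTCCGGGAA

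The 4 matches formed 2 pairs. Counted from the start, the farther pair ran from position -241 to -222, with 2 bases between its matches, and the nearer pair from -129 to -104, with 8 bases between its matches. A single match was common, since 7.66% of the 35116 windows of all genes held at least 1 (2689 windows). At least 2 matches stood in 0.456% of windows and at least 4 in 0.0199% (7 windows, of 6 genes). BCL6, which encodes a transcriptional repressor that is itself known as a STAT5 target, was another of these 6 genes. Of the 6, 4 had a level, which was 5.83 for CISH, 2.54 for ZNF225, 1.94 for ZNF112 and -2.48 for BCL6. The median level of genes with a match was 3.01 (1254 genes with a level), and that of genes without one was 3.43. A match is a description of letters and not evidence of binding.

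A wider window, from 1000 bases before to 500 after each start, was read from hg38. It held the motif in 5 of the 9 genes, where 37.4% of all genes and 33.6% of all windows held at least 1. CISH then had 5 matches and SOCS3 had 3, at its second annotated start. The SOCS3 match at position -474 from that start lay just before the GENCODE start of the gene. JAK2, STAT3 and PIM1 had 1 each, and EPOR, STAT5A, STAT5B and SOCS1 had 0. The same motif with 4 bases between TTC and GAA, the form known to be favoured by STAT6, was found in the 300-base window of STAT5A alone, where 6.44% of all windows held it.

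**Figure D1:**
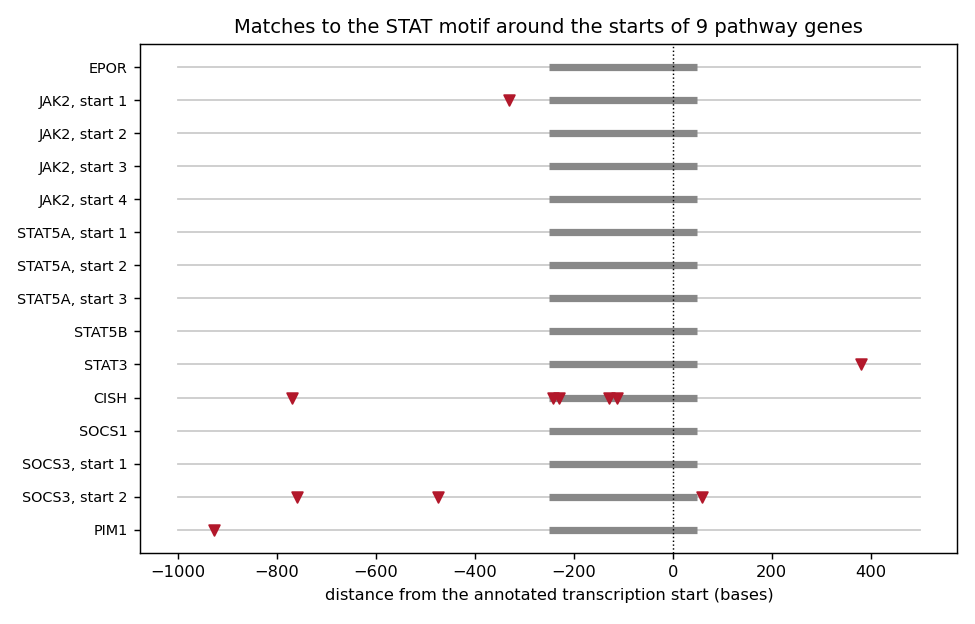
Matches to TTCNNNGAA around the annotated starts of 9 pathway genes, by distance from the start in bases. The thin line is the 1500-base window, the thick bar the 300-base window and each triangle the first base of a match. Starts are those of RefSeq, and the thick bars of SOCS3 and STAT5B do not cover their GENCODE starts. CISH is the only gene with triangles on its thick bar. A match of SOCS3 begins just past the end of its own at position 59, and its match at -474 lies just before its GENCODE start.

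All 10 genes had a level of at least 0, where 43.8% of all genes listed and 69.0% of the 16661 genes annotated as protein-coding did. Their median level was 7.25, against -0.97 over all genes, 3.62 over protein-coding genes and 4.55 over the 14000 genes with a level of at least 0. All 10 lay above the median of all genes, and 9 lay above that of protein-coding genes, the exception being SOCS1. The kinase, the STAT factors and PIM1 lay at 8.07 or higher, and the receptor and the feedback genes at 6.43 or lower.

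**Figure D2:**
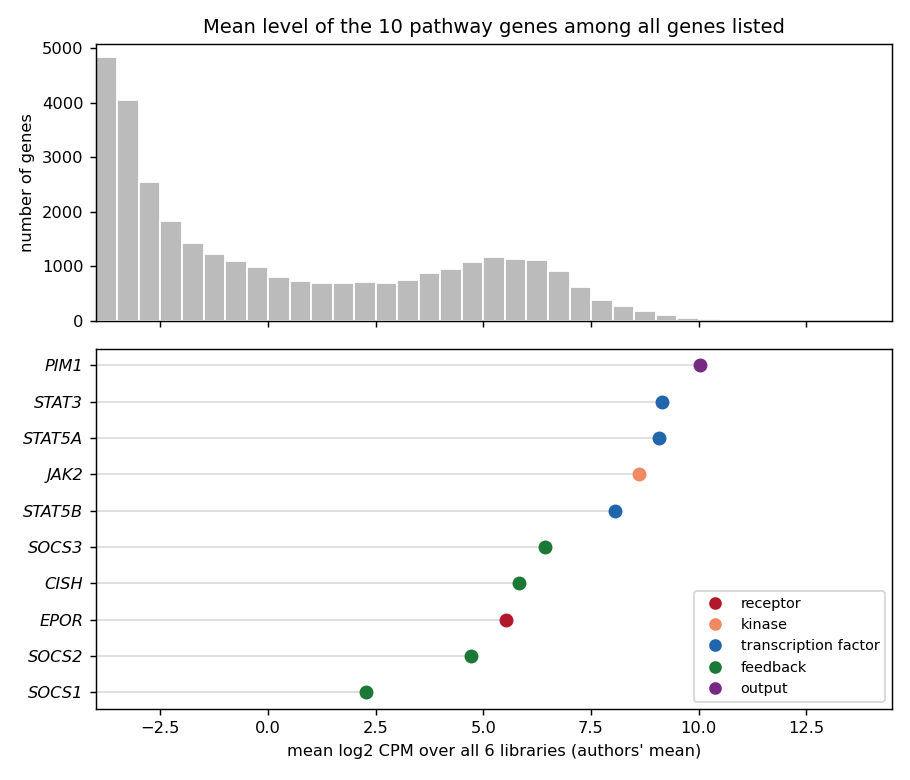
Top, the number of genes at each mean log2 CPM over all 6 libraries, in steps of 0.5. Bottom, the mean log2 CPM of the 10 pathway genes, coloured by role, running from 2.28 for SOCS1 to 10.04 for PIM1, with no error bars because each gene has 1 pooled value.

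EPOR (chr19:11377207-11384342, minus strand, hg38) binds erythropoietin. Its level was 5.52, or 45.8 CPM, which ranked 4829 of 31999 genes and stood at percentile 71.7 of protein-coding genes. Longer transcripts give more reads, so levels of different genes are compared below as CPM per kilobase, first over all exons merged, then over the longest annotated transcript and over the coding length. EPOR had 14.9 CPM per kilobase of merged exons, 19.0 of longest transcript and 30.04 of coding length. Under each of these lengths it was 3rd of the 10 genes with a value reported here from receptors listed as signalling through JAK2. Some of these genes encode single chains of a receptor, which need not bind JAK2 themselves.

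Of the 13 other receptors reported here 9 had a value and 6 had a level of at least 0. The highest of these by CPM per kilobase of merged exons were CSF2RB, the shared beta chain of the IL-3, IL-5 and GM-CSF receptors, at 20.6, LEPR, the leptin receptor, at 20.01, and IFNGR1, a chain of the interferon gamma receptor, at 11.5. The ratio of EPOR to CSF2RB per kilobase was 0.724, 0.898 and 0.788 under the 3 lengths, and that to LEPR was 0.744, 0.685 and 0.462. IL3RA, CSF2RA, GHR and CRLF2 had no value here. Of 11 ligands of these receptors 7 had a value and 2 had a level of at least 0, LIF at 4.15 and OSM at 2.23. Erythropoietin's own gene, EPO, was among the 5 below 0. The receptor's transcript was thus above 1 CPM and that of its ligand below it.

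JAK2 (chr9:4984390-5129948, plus strand) is the kinase that EPOR carries. Its level was 8.62, or 392.7 CPM, which ranked 386 of 31999 genes. Per kilobase it had 49.7 CPM of merged exons, 55.9 of longest transcript and 115.6 of coding length. It was the highest of the 4 JAK kinases under each length, ahead of JAK1, TYK2 and JAK3 in that order. The lead over JAK1 depended on the length, at 1.76 per kilobase of merged exons, 1.17 of longest transcript and 1.08 of coding length. The lead over TYK2 was 2.40, 1.81 and 2.34, and that over JAK3 was 5.29, 3.83 and 4.96. JAK2 exceeded EPOR by 3.34, 2.94 and 3.85 times per kilobase.

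The 3 STAT genes of the pathway lie side by side on chromosome 17. In GENCODE, STAT5B (42199176-42288633, minus strand) and STAT5A (42287547-42311943, plus strand) overlap by 1087 bases at their ends. STAT3 (42313324-42388540, minus strand) follows STAT5A after 1380 bases. The RefSeq promoter window of STAT5B, 42276342-42276641, lies short of STAT5A, so the overlap may not hold in a RefSeq annotation. STAT5A had a level of 9.08, or 541.9 CPM. STAT5B had a level of 8.07, or 267.9 CPM, and STAT3 one of 9.16, or 570.3 CPM. They ranked 233, 662 and 216 of 31999 genes.

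Per kilobase, STAT5A exceeded STAT5B by 3.84 times over merged exons, by 3.45 over the longest transcript and by 2.01 over the coding length. The first 2 of these ratios depend on the gene model. STAT5B had 12110 bases of merged exons and 7345 of longest transcript, against 5079 of the reference transcript defined below. For STAT5A these lengths were 6385, 4301 and 3770 bases. The ratio over the reference transcripts was not computed, but it would be lower than 3.45. STAT3 exceeded STAT5B by 2.30, 3.09 and 2.18 times. STAT3 and STAT5A changed places with the length, since their ratio was 0.60, 0.90 and 1.09. STAT5A and STAT3 stood above the other STAT genes reported here under each length. STAT6, which serves IL-4, had 15.7 CPM per kilobase of merged exons, STAT2, which serves type I interferons, had 8.55 and STAT4, which serves IL-12, 1.01.

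Part of the STAT5A and STAT5B sequences is equal, and a read that lies wholly in such a part cannot be assigned to either gene. The read length and the handling of such reads were not examined, so the share of reads affected is unknown. Their coding sequences were equal at 88.9% of aligned bases (2085 of 2345), and the longest run of equal bases was 429 long, at coding bases 564 to 992 of both, spread over 4 exons of each gene. The 30 coding bases around each end of that run are shown to mark where the 2 genes can and cannot be told apart. Unequal bases are in capitals, each stretch is joined across an intron, and all are 5' to 3' on the coding strand.
STAT5A, first edge, chr17:42295792-42299778, plus: agctcagtttgCccAgctggcccagctgag
STAT5B, first edge, chr17:42219815-42223383, minus: agctcagtttgGccCgctggcccagctgag
STAT5A, last edge, chr17:42300859-42301292, plus: cctggtgaccagcacAttcatcattgagaa
STAT5B, last edge, chr17:42218313-42218734, minus: cctggtgaccagcacGttcatcattgagaa

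Of the 50-base windows of the STAT5A transcript, 507 of 3721 (13.6%) were also found in a transcript of another gene, in each case STAT5B. The share was 10.1% for STAT5B, and it was 21.7% and 21.9% within the coding sequences. With 100-base windows it was 10.1% for STAT5A and 7.45% for STAT5B. STAT3 shared 1.44% of its 50-base windows, none of them coding, and 0 of its 100-base windows. The other 7 genes shared 0 windows of either length. In steps of 60 coding bases, 7 of 40 steps were equal at every base and 10 were equal at under 80% of bases. By contrast STAT5A and STAT3 were equal at 56.0% of aligned coding bases, with a longest run of 11.

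**Figure D3:**
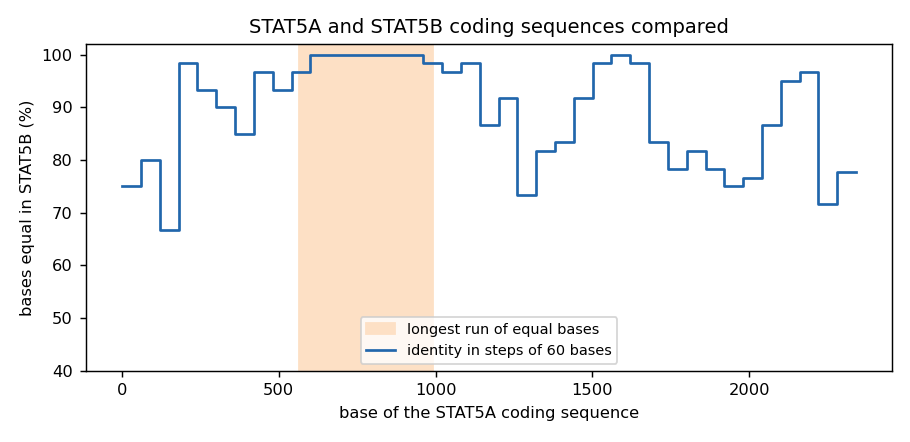
Share of bases in STAT5A coding sequence that are equal in STAT5B, in percent, by position in steps of 60 bases, with the vertical axis starting at 40%. The shaded band is the run of 429 equal bases, on either side of which the share falls in places to under 80%.

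Overlapping exons on opposite strands add a further limit. The library kit keeps the strand, but whether counting used it is not given in the sources used here. In GENCODE, exons of STAT5A and STAT5B overlap by 415 bases, or 6.4996% of the merged exons of STAT5A and 3.43% of those of STAT5B. Whether the annotation used for counting holds this overlap is uncertain. CISH shares 218 bases with MAPKAPK3, which had a level of 8.31, and SOCS2 shares 277 bases with SOCS2-AS1, which had a level of 1.63. The part of these shared bases in the levels was not tested.

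CISH (chr3:50606489-50611774, minus strand) and the SOCS genes encode the feedback inhibitors. SOCS3 (chr17:78356778-78360077, minus strand), which acts on JAK2 and on receptors such as the IL-6 receptor's gp130, had the highest level of the 4, 6.43 or 86.0 CPM. CISH, which competes with STAT5 for sites on the receptor, had a level of 5.83 or 56.7 CPM. SOCS2 (chr12:93569814-93583487, plus strand), known for restraining growth hormone signalling, had a level of 4.70 or 26.1 CPM. SOCS1 (chr16:11254417-11256204, minus strand), a direct inhibitor of JAK kinases best known from interferon signalling, had the lowest level of all 10 genes, 2.28 or 4.86 CPM. It ranked 10678 of 31999 genes and stood at percentile 41.0 of protein-coding genes.

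Per kilobase the order SOCS3, CISH, SOCS2, SOCS1 held under each length, although the steps changed in size. SOCS3 had 31.4 CPM per kilobase of merged exons, CISH 11.2, SOCS2 4.03 and SOCS1 2.72. Per kilobase of coding length they had 127.4, 73.3, 43.9 and 7.68. The ratio of CISH to SOCS3 was thus 0.357 over merged exons and 0.576 over the coding length. That of SOCS3 to SOCS1 was 11.6 and 16.6. The value of 0.357 depends on the gene model. The merged exons of CISH (5056 bases) and its longest transcript (5042 bases) were far longer than its MANE Select transcript, which lowers CISH per kilobase. For SOCS3 all of these lengths were 2734 bases. The ratio over the MANE Select transcripts was not computed, but it would be higher than both 0.357 and 0.576. SOCS3 and CISH were 1st and 2nd of the 8 genes of the SOCS family under each length. The other 4 members of the family, SOCS4, SOCS5, SOCS6 and SOCS7, which are less tied to STAT activity, had 2.45 to 4.67 CPM per kilobase of merged exons. SOCS2 lay among them on that scale but above all 4 over the other lengths, where it was 3rd of the 8. SOCS1 was 7th of the 8 over merged exons and the longest transcript and 8th over the coding length.

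PIM1 (chr6:37170152-37175428, plus strand) encodes a serine/threonine kinase that supports survival and growth. Its level of 10.04, or 1053 CPM, was the highest of the 10 genes and ranked 89 of 31999. It also led per kilobase, at 347.6 CPM of merged exons, 389.6 of longest transcript and 1122 of coding length. PIM2, the next of the 3 PIM kinases, had 112.7 CPM per kilobase of merged exons and PIM3 had 23.3. The ratio of PIM1 to PIM2 was 3.08, 2.597 and 3.36 under the 3 lengths, and that to PIM3 was 14.9, 16.0 and 21.4. PIM1 had 0 motif matches in the 300-base window and 1 in the wider one, at position -927 from its start.

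**Figure D4:**
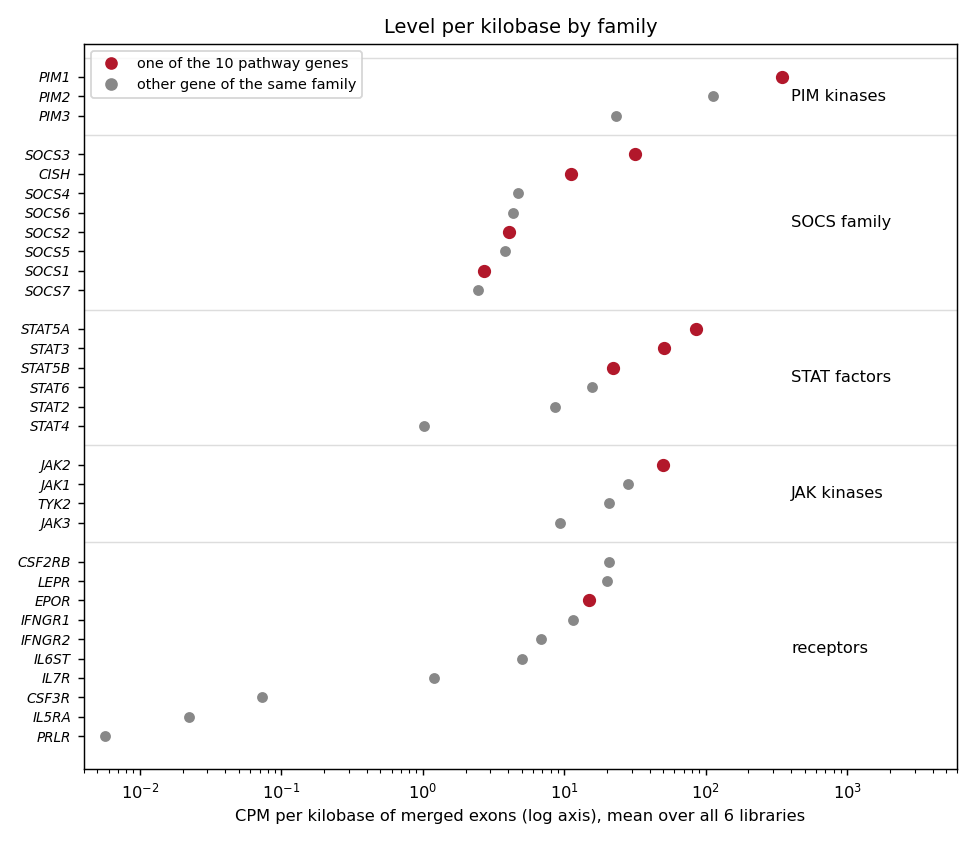
CPM per kilobase of merged exons on a log axis, as a mean over all 6 libraries, for the genes of 5 families that are reported here and had a value. Red points are the pathway genes and grey points the others of each family, and JAK2, STAT5A, SOCS3 and PIM1 stand first in theirs while EPOR is 3rd of 10 receptors.

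Other parts of the pathway were taken from fixed lists. A list of 13 phosphatases, adaptors and ligases was drawn up as restraining the pathway. That role was not tested, and being listed does not establish it for each gene, PTPN11 and DUSP1 included. All 13 had a level of at least 0, with a median of 6.11. The highest by CPM per kilobase of merged exons were PTPN6, the phosphatase SHP-1 that is known to act on the activated EPOR, at 58.0, SH2B3, the adaptor LNK that binds JAK2, at 27.5, and PTPN11, the phosphatase SHP-2, at 23.6. PTPN6 was above JAK2 under each length, with 58.0 against 49.7 CPM per kilobase of merged exons, 120.4 against 55.9 of longest transcript and 162.6 against 115.6 of coding length. Of 11 adaptors and kinases downstream of the receptor 9 had a level of at least 0, and GRB2 had 59.2, the kinase LYN 52.3 and SHC1 48.2.

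Of 15 other genes known as STAT5 or STAT3 targets 14 had a value and 11 had a level of at least 0, with a median of 6.08. TFRC, the transferrin receptor that brings iron into red cell precursors, had 125.2 CPM per kilobase of merged exons, MYC 110.4 and ID1 63.3. PIM1 was above all 3 on that scale. Over all lists, with each gene counted once, 65 of 74 genes had a value and 52 of these had a level of at least 0. Of 58 genes of the lists with a promoter window, 7 held TTCNNNGAA in the 300-base window, where 9.38% of all genes did, and 22 in the wider one, where 37.4% of all genes did. The 7 were 2 receptors, 3 ligands and 2 of the 10 STAT targets with a window, BCL6 and IRF1.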

How the data were processed

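RNA of HEL cells was sequenced from 3 shCtrl and 3 shTMIGD2 libraries, grouped by their labels (poly(A) selection, directional kit). Per the labels the authors used STAR 2.6.1b, HTSeq 0.6.1, hg38, DESeq2 3.11 and edgeR. The paper names a refSeq annotation, but the table also holds clone-style gene names, so the exons counted are uncertain and may differ from the GENCODE lengths used here. The version of edgeR is not given in the sources used here. The deposited table holds, for each gene, the authors' mean log2 CPM over all libraries, which is used here. Its other columns, the log2 fold change, F statistic, p-value and false discovery rate of the authors' own comparison, were not used, so the planned count test was not run.

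Gene names were matched to GENCODE 44, 22987 by symbol and 575 by an older symbol, for positions and lengths, and levels per kilobase are the CPM over merged exons, the longest transcript or the coding length. Names were given for the 10 genes, TMIGD2 and, from each list, the 3 genes highest per kilobase, with lists of 4 or fewer in full and genes below 0 by count. BCL6, IRF1, ZNF225, ZNF112, EPO, MAPKAPK3, SOCS2-AS1, genes without a value and markers were named after their values were seen. Each gene's reference transcript was the MANE Select transcript of GENCODE or else the canonical one, and it also gave the coding length. It was not always the longest, with 3770 bases for STAT5A and 5079 for STAT5B. Windows of 50 bases of the reference transcripts were searched in all transcripts of other genes. Coding sequences were aligned pairwise, and motifs were searched in RefSeq windows. The tools were Python 3.11.15, numpy 2.4.6, pandas 2.3.3, Biopython 1.88 and matplotlib 3.10.9. The motif search was tested on simulated promoters, and the percentile and the merging of exons on made-up values. The other steps were not tested in this way. The genes and lists were chosen with earlier results of these data known. From the lists, 2 genes are not reported here and enter no count or order over a list.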

Additional observations from a re-analysis of the deposited data

How the results depend on the processing

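The number of pathway genes with TTCNNNGAA near a RefSeq start was 1 in the 300-base window. It moved to 5 in the 1500-base window, which holds more sequence. The form with 4 bases between TTC and GAA gave 1 in the 300-base window. All 10 genes also had a mean log2 CPM of at least 1. The number above the median was 10 against all genes and 9 against either protein-coding genes or genes with a level of at least 0, and all 10 percentiles were lower against those backgrounds. The order per kilobase was unchanged for 8 of 10 genes over the longest transcript and for 3 over the coding length. STAT5A and STAT5B were equal at 88.3% of the shorter coding sequence, against 88.9% of aligned bases. The protein-coding background, the coding length, the 1500-base window and the search for shared windows of 50 and 100 bases were chosen after seeing the data, the first 2 in place of a protein table that was not used here. No paired analysis was possible because each gene has 1 pooled level and no value per library. For the same reason DESeq2, the fit without a filter and the fits that leave out a library were not run, and protein identities were not computed. A pooled level has no error, so how far neighbours in an order differ beyond replicate spread was not tested.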

Other observations

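Of the 4 receptors of the list without a value, IL3RA, CSF2RA and CRLF2 lie in the pseudoautosomal region at the tip of the short arm of chromosome X, which has a copy on Y. Of 15 protein-coding genes annotated there, 1 had a value, CD99, against 608 of 838 on the rest of chromosome X. The absence of a value for these 3 receptors therefore says nothing of their transcripts in HEL cells, and the cause was not tested.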
